A study of Mus musculus with 54 samples.

Results

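Kidney injury and repair genes were followed through every preparation of a mouse kidney study: dissociation at a cold or a warm temperature, storage of the cells, isolation of nuclei, and intact tissue. The set was a fixed list of 10 of the 33126 genes listed in the files, namely Havcr1, Lcn2, Spp1, Krt8, Krt18, Krt19, Vcam1, Clu, Sox9 and Cd44, and the rule for choosing them named the genes; earlier results of these data were known when they were chosen. Of the 10 genes, 8 to 10 were listed in each of the 54 libraries, which were 39 10x Genomics Chromium libraries (single cells or single nuclei, with unique molecular identifiers, UMIs) and 15 bulk RNA-seq libraries. The 18 groups had 3 libraries each, prepared from kidneys of different mice.

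The C57BL/6J mice were males of 19 weeks labelled AFAPIL.1DEL C57BL/6J, from 1 litter. Their suspensions were prepared by cold dissociation (a cold-active protease, on ice) or warm dissociation (an enzyme kit run with heating) and profiled fresh, after methanol fixation and 3 months of storage, or after 6 weeks of cryopreservation (centrifuged at 400 g), with fresh suspensions also profiled in bulk. The Balb/c males were 18 weeks old and gave fresh cold-dissociated cells, nuclei isolated by fluorescence-activated nuclei sorting after 3 washes with centrifugation at 500 g (FANS 3x500g) and bulk libraries of intact kidney. The Balb/c females were 15 weeks old, wild-type former breeders, and gave fresh cold-dissociated cells, the same after 2 weeks of cryopreservation (centrifuged at 1200 g), nuclei from FANS 3x500g, from FANS after 1 wash with centrifugation at 2000 g (FANS 1x2000g) and from a sucrose cushion, and bulk libraries of cold suspensions and of intact kidney. The labels name no injury treatment. The male experiments used version 2 and the female experiment version 3 of the 10x chemistry, and sex, strain, age, chemistry and batch cannot be told apart between the experiments.

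The injured tubule is known for a program in which epithelial cells lose transport functions and express genes that are low in the healthy nephron. Havcr1 (kidney injury molecule 1, a phagocytic receptor) and Lcn2 (lipocalin 2, an iron-siderophore carrier) are used as urinary injury markers, Spp1 (osteopontin) and Clu (clusterin, a chaperone) are secreted proteins, and Krt8, Krt18 and Krt19 encode filaments of simple epithelia. Vcam1 (an adhesion molecule), Sox9 (a transcription factor of repair) and Cd44 (a hyaluronan receptor) are used as markers of cells that repair slowly or incompletely, but endothelial cells and leukocytes are also known to express Vcam1 and Cd44.

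Each 10x barcode was placed in 1 of 12 classes by 10 marker genes per class: it had to have at least 3 markers of its class detected and to lead the next class by at least 2, and is called PT-gated (proximal tubule), TAL-gated (thick ascending limb) and so on. Between 45.7% and 88.1% of the barcodes of a library were gated, and 8.9% to 46.1% of the gated barcodes lay at the cut. UMIs were summed over the barcodes of a class in a library and are given as CPM, the UMIs of a gene scaled to that sum. Libraries held 782 to 9308 barcodes and 983522 to 35170947 UMIs, with a median of 343 to 3894 UMIs per barcode, and bulk libraries held 2326998 to 31093949 counts. Pairs of libraries shared at most 101 barcode sequences (median 2) and, taking each pair against its smaller library, at most 2.05% of the barcodes.

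In these kidneys, for which no injury treatment is labelled, not all members were highest in a tubule class. In fresh cold-dissociated female cells, Havcr1 was low everywhere: PT-gated barcodes had 2.15 ± 0.53 CPM (SD, n = 3), which was 58.0% of all its UMIs in those libraries, and ungated barcodes had 4.36 ± 1.30 CPM. Lcn2 was highest in principal cells of the collecting duct (66.5 ± 15.5 CPM) and next in the TAL (8.48 ± 4.60 CPM). Spp1 was the most abundant member. In the thin limb it was at 7682 and 2304 CPM in the 2 libraries with at least 10 gated barcodes (16 and 14), values on both sides of the TAL. It was at 3005 ± 310 CPM in the TAL, 2251 ± 124 CPM in the distal convoluted and connecting tubule (DCT/CNT) and 2142 ± 71.7 CPM in the PT, and the ranges of the last 2 classes overlapped.

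Krt8 and Krt18 were high in the collecting duct. They reached 259 ± 34.3 and 352 ± 32.1 CPM in principal cells and 116 ± 18.5 and 139 ± 13.6 CPM in intercalated cells. Krt19 did not follow them: it was at 9.73 ± 5.52 CPM in principal cells, and 71.3% of its 171 UMIs fell in ungated barcodes. In the C57BL/6J cold fresh libraries, where 5 and 6 barcodes of 2 libraries passed the urothelial gate, these held 69.0% of its 203 UMIs and principal cells 3.94%. Clu was highest in the DCT/CNT (1309 ± 66.9 CPM), followed by principal cells (666 ± 312 CPM).

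Vcam1 and Cd44 were highest outside the tubule. Vcam1 stood at 69.3 ± 16.1 CPM in endothelial cells and at 3.33 ± 0.86 CPM in the PT, and Cd44 at 70.8 ± 33.8 CPM in lymphoid and 47.7 ± 17.2 CPM in myeloid cells. Sox9 did not exceed 3.49 ± 2.14 CPM, its level in the DCT/CNT, which rested on 4, 5 and 7 UMIs. It was near 0 in the PT, with 1 UMI in 6188 barcodes.

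**Figure D1:**
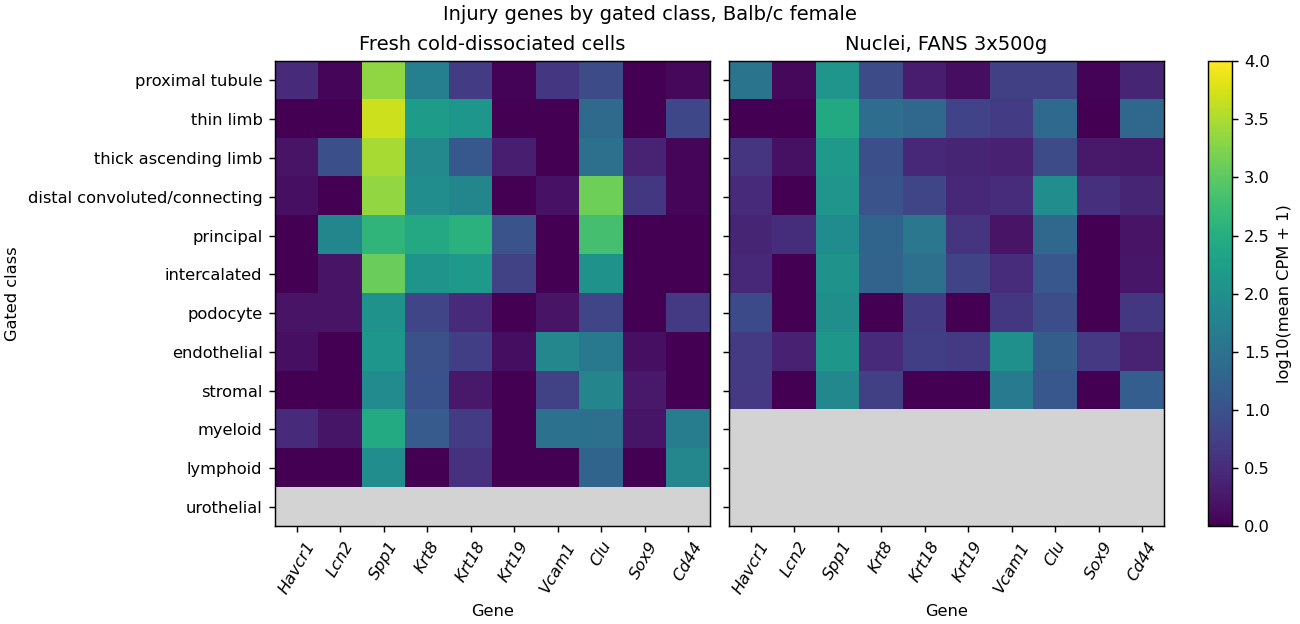
Mean level of the 10 injury genes (columns) by gated class (rows) in fresh cold-dissociated cells and in FANS 3x500g nuclei of Balb/c female mice, as log10 of the mean CPM plus 1, over libraries with at least 10 gated barcodes of the class (gray: too few gated barcodes). In cells the Spp1 column is bright along the tubule and has its lowest mean in stromal cells, and in nuclei its class means lie between 72.3 CPM (stromal) and 270 CPM (thin limb), while the Havcr1 square of the PT is brighter in nuclei.

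Warm and cold dissociation were first compared in bulk, where the question is what the suspension as a whole did. In C57BL/6J suspensions, Lcn2, Krt8, Krt18 and Clu were higher after warm dissociation, so that 4 of the 8 members tested rose and none fell, against 8.68% of 14102 genes called in either direction (5.42% higher). The median log2 fold change of the tested members was 0.42, and of all genes -0.01. In a bulk library, fewer cells of a type and less RNA per cell cannot be told apart. Levels below are TPM, counts divided by the exon length of each gene and then scaled to the same total in every library.

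Krt8 was at 93.1, 97.0 and 83.9 TPM after cold and 188, 171 and 180 TPM after warm dissociation, a fitted log2 fold change of 0.94 (SE 0.07, adjusted p = 8.62e-06). Its partner Krt18 was at 20.4, 24.1 and 22.1 TPM after cold and 57.1, 55.7 and 89.5 TPM after warm dissociation, or 2.98 times higher (log2 fold change 1.58, SE 0.20, adjusted p = 0.000466). For both keratins every warm library lay above every cold library. Krt19, the third keratin of the list, was at 6.42, 6.44 and 9.77 TPM after cold and 3.92, 3.95 and 4.73 TPM after warm dissociation, and did not pass the test (log2 fold change -0.87, adjusted p = 0.0845). Summed urothelial markers were at 21.8 to 25.5 CPM after cold and 9.86 to 14.5 CPM after warm dissociation.

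Clu rose from 207, 214 and 149 TPM to 270, 281 and 388 TPM (log2 fold change 0.69, SE 0.14, adjusted p = 0.0105). Lcn2 rose from 1.57, 1.37 and 2.16 TPM to 2.96, 5.99 and 7.62 TPM, or 3.15 times (log2 fold change 1.65, SE 0.40, adjusted p = 0.0244). It was the least certain of the 4 calls, since it rested on 6 to 10 counts per cold and 16 to 41 counts per warm library and was lost without cold replicate 1 or 2 or warm replicate 2 or 3 (log2 fold change 1.34 to 1.59, adjusted p = 0.0576 to 0.101). By size of the fitted change, Lcn2 was at place 83 and Krt18 at place 93 from the highest of the 14102 genes.

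The secreted protein Spp1 was at 1123, 1123 and 1231 TPM after cold and 1217, 1339 and 1430 TPM after warm dissociation, a log2 fold change of 0.15 that did not pass the test. Vcam1, at 4.17 to 4.60 TPM after cold and 4.25 to 4.54 TPM after warm dissociation, and Cd44 did not pass it either. Havcr1 (3 to 11 counts per library) and Sox9 (1 to 10 counts) were too low to be tested. Markers of the segments rich in these genes moved as well: summed principal cell markers were at 558 to 823 CPM after cold and 1063 to 1393 CPM after warm dissociation, intercalated cell markers at 387 to 433 and 661 to 768 CPM, DCT/CNT markers at 2588 to 3200 and 4076 to 5370 CPM, and PT markers at 29388 to 30954 and 25587 to 27976 CPM. Their part in the 4 calls was not tested. Among 36 other injury genes, 9 of the 33 tested rose and 1 fell, with a median of 0.12 against -0.01 over all genes, and the largest calls were Cxcl1 (a neutrophil chemokine, 4.46 on the log2 scale), Cyr61 (a matricellular early response gene, 3.58) and Gdf15 (a stress-induced cytokine, 3.10).

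The sequences upstream of the RefSeq starts of Lcn2, Krt8 and Krt18 are shown because these 3 genes changed together in the bulk suspensions, Krt8 and Krt18 being neighbors on chromosome 15. Of the 10 members, 6 were matched by symbol to RefSeq promoter windows on GRCm38.p6, 9 windows in all. Each window of 250 bases before the start was searched on both strands for AP-1 (TGANTCA), a heat shock element (GAANNTTC), the NF-kappa B consensus, a GC box (GGGCGG) and a TATA box (TATAAA). Of 32851 promoters, 6.75%, 6.69%, 7.25%, 32.7% and 12.4% held them. Only the longest stretch outside the exons annotated by GENCODE is printed, 5′ to 3′ on the strand of the gene, with matches in capitals. The Lcn2 stretch lies inside the longer GENCODE gene, whose exons cover 197 of the 250 bases of that window, and exons cover 140 bases of the Krt8 and 36 bases of the Krt18 window.
Lcn2, chr2:32387798-32387850 (minus strand): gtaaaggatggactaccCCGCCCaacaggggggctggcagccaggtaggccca
Krt8, chr15:102004483-102004592 (minus strand): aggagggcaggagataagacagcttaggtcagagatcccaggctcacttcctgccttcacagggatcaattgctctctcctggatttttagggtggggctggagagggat
Krt18, chr15:102027966-102028179 (plus strand): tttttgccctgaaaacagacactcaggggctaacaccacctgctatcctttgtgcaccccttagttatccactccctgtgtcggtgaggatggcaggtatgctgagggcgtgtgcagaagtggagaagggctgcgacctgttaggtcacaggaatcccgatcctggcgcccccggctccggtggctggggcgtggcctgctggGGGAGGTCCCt
The window of Lcn2 held 1 GC box, that of Krt18 held 1 match to the NF-kappa B consensus, and that of Krt8 held none of the 5. The 3 windows therefore shared no match, and a match describes letters, not binding.

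The second bulk comparison set intact female kidney against female cold suspensions. Havcr1 had the largest difference of the members: 21.1, 21.4 and 20.8 TPM in suspensions (316 to 377 counts) and 233, 250 and 228 TPM in intact kidneys (4273 to 4735 counts). It was 10.7 times higher in intact tissue (log2 fold change 3.41, SE 0.06, adjusted p = 2.93e-09), at place 42 of 16538 genes, and the libraries of the groups lay far apart. Intact male kidneys had 41.5, 32.6 and 56.0 TPM, and C57BL/6J suspensions had 0.63 to 2.49 TPM, values from separate experiments that are only set side by side.

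In all, 3 members were higher and 2 lower in intact kidney of the 10 tested, against 20.0% of 16538 genes called (12.1% higher, 7.91% lower), with a median log2 fold change of -0.18 for the members and -0.003 for all genes. Krt19 was at 4.74, 1.98 and 5.22 TPM in suspensions and 15.0, 9.15 and 17.7 TPM in intact kidneys (log2 fold change 1.75, SE 0.34, adjusted p = 0.00606), without overlap. Krt8 differed by only 0.22 on the log2 scale (adjusted p = 0.00938). Clu was lower in intact kidney, at 194, 193 and 216 TPM against 337, 311 and 313 TPM in suspensions (log2 fold change -0.75, SE 0.06, adjusted p = 4.06e-05), and so was Cd44 (-0.93, SE 0.18, adjusted p = 0.00523).

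Spp1 was at 2422, 2263 and 2668 TPM in intact kidney and 2689, 2676 and 3043 TPM in suspension and did not pass the test (log2 fold change -0.27, adjusted p = 0.0543). The summed level of the 10 PT markers was 15574 to 18643 CPM in intact kidney and 14810 to 15449 CPM in suspension, and that of the endothelial markers 658 to 754 CPM and 459 to 492 CPM. DCT/CNT markers, of the class in which Clu was highest, were lower in intact kidney (2946 to 3055 CPM against 4044 to 4610 CPM), and so were lymphoid markers (6.34 to 8.35 against 14.7 to 19.4 CPM). Urothelial markers were higher there (46.9 to 59.0 against 28.3 to 36.4 CPM), as was Krt19, and thin limb markers also (384 to 605 against 224 to 261 CPM). The part of these classes in the member differences was not tested. Of 34 other injury genes tested, 10 were higher and 2 lower in intact kidney, led by Fga (fibrinogen alpha chain, 1.85 on the log2 scale), C3 (complement component 3, 1.54) and S100a6 (a calcium-binding protein, 0.96).

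**Figure D2:**
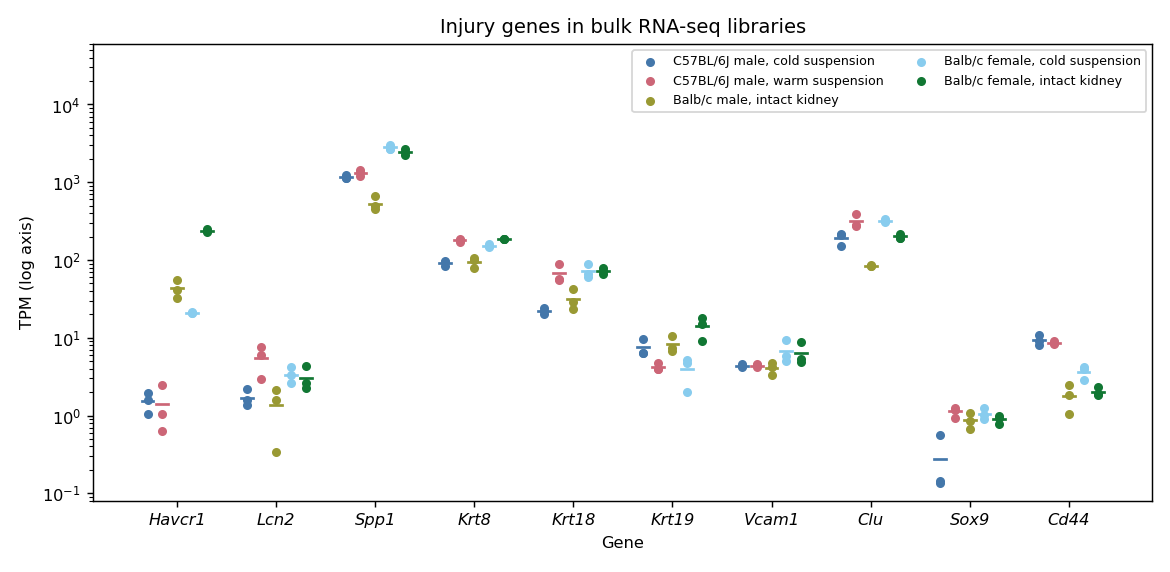
TPM of the 10 injury genes in each bulk library (points, log axis) with the group mean (line), for 5 groups of 3 libraries. Havcr1 ranges from 0.63 TPM in C57BL/6J suspensions to 250 TPM in intact female kidney, while Krt8 and Krt18 of the warm suspensions lie above the cold ones.

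Fresh single cells gave the same dissociation contrast by class. Over 8 classes, 22 combinations of member and class were tested of 72 that were listed in all libraries compared, and 4 were higher after warm dissociation and 0 lower, against 4.57% of 27677 gene and class combinations called (2.57% higher). The median was 0.33, against -0.02 to 0.01 over all genes of a class. The 4 were Krt8 in the PT, Spp1 and Clu in principal cells and Vcam1 in endothelial cells. Havcr1 had no value in any C57BL/6J 10x library, since genes detected in fewer than 10 barcodes were left out by the authors, and Sox9 was tested in no class.

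In PT-gated barcodes, Krt8 was at 62.4, 39.2 and 37.7 CPM after cold and 90.0, 74.3 and 75.4 CPM after warm dissociation (log2 fold change 0.66, SE 0.16, adjusted p = 0.031). The groups did not overlap, but the call was lost without any library except cold replicate 1 (log2 fold change 0.55 to 0.69, adjusted p = 0.0545 to 0.149). Krt18 in the PT was at 2.59, 1.71 and 1.36 CPM after cold and 16.4, 3.45 and 1.54 CPM after warm dissociation and was not called. In the highest of these libraries its 56 UMIs came from 11 barcodes.

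In principal cells, Spp1 rose from 1021, 753 and 849 CPM to 1492, 1933 and 1600 CPM (log2 fold change 0.97, SE 0.19, adjusted p = 0.000501). Clu rose there from 906, 523 and 630 CPM to 1014, 1578 and 2560 CPM (1.34, SE 0.22, adjusted p = 5.34e-05). Both rested on few barcodes, 38, 94 and 64 after cold and 14, 42 and 20 after warm dissociation. Summed DCT/CNT markers in that gate were at 11701 to 17314 CPM after cold and 17048 to 29470 CPM after warm dissociation, and their part was not tested. Vcam1 in endothelial cells showed the largest change, from 135, 53.4 and 57.3 CPM to 304, 335 and 232 CPM, or 3.82 times (log2 fold change 1.93, SE 0.25, adjusted p = 0.000247), on 24, 24 and 23 and on 61, 149 and 58 UMIs. Lcn2, tested in principal cells alone, was not called (log2 fold change -0.91, adjusted p = 0.295). Of 25 other injury genes tested in the PT, 4 were higher and 1 lower, with a median of 0.18 against -0.003 over all genes. Over all classes 4.57% of genes were called, 2.57% higher, and the share in the PT alone is not given.

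Methanol-fixed and stored suspensions were compared with the fresh ones, so fixation and storage cannot be told apart. With cold dissociation, 11 of 24 combinations were called (9 higher, 2 lower), against 20.3% of 27512 called over all genes (9.45% higher, 10.9% lower), and Spp1 made up 6 of the 9. With genes at 0 over a whole library left out, which takes out Cd44, 10 of 22 were called (9 higher, 1 lower), against 21.0% of 27122. With library totals in place of TMM factors 10 were called higher and 0 lower, against 24.9% of 27512 called over all genes. The median was 0.12, against -0.03 to 0.05 over all genes of a class. Spp1 rose in the PT from 463, 482 and 532 CPM to 766, 702 and 817 CPM (log2 fold change 0.39, adjusted p = 0.0255, lost without fresh replicate 2 or any fixed library, at 0.31 to 0.44 and adjusted p = 0.0527 to 0.103). Its changes were larger in classes where it was low: podocytes went from 61.0, 45.4 and 43.1 CPM to 163, 209 and 159 CPM (1.78, SE 0.30, adjusted p = 0.000425), endothelial cells from 44.9, 68.9 and 67.2 CPM to 117, 212 and 213 CPM (1.48, adjusted p = 0.00133), and lymphoid cells from 35.5, 55.6 and 53.5 CPM to 233, 153 and 191 CPM (1.66, adjusted p = 0.0067). Fixed and fresh libraries did not overlap in any of these classes. With the suspension number as a block, which pairs these libraries, 12 of 27 passed the threshold, against 25.5% of 31002 over all genes. They include Krt19 in the PT and Cd44 in myeloid cells, which had no value in 1 or more libraries and are not read as calls. Among the other members of the same fit 10 of 24 were called (9 higher, 1 lower). The 25.5% counts all genes of that fit, those without a value in a library included, and a share without them is not given. The PT counts of Krt19 were 1 and 0 UMIs in fresh and 36 and 19 UMIs in fixed libraries, besides replicate 1 of either group, where it had no value.

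Clu rose in PT-gated barcodes from 16.5, 9.99 and 15.5 CPM to 26.6, 43.8 and 42.3 CPM after cold dissociation (log2 fold change 1.25, SE 0.23, adjusted p = 0.00184). After warm dissociation it rose from 11.1, 23.5 and 16.5 CPM to 44.9, 48.5 and 57 CPM (1.33, SE 0.26, adjusted p = 0.00582), the only call among 16 combinations tested there (10.9% of 18459 called over all genes, 4.89% higher). With the suspension number as a block, Spp1 in the PT was called as well after warm dissociation (log2 fold change 0.25, adjusted p = 0.027), which made 2 calls (12.6% of 18630 called over all genes under the block). The remaining calls of the cold comparison were Spp1 in principal (0.74) and myeloid cells (1.10), Krt18 in the PT (1.79, from 8, 7 and 5 UMIs to 9, 29 and 16 UMIs), and Clu in endothelial (0.92) and, lower, in intercalated cells (-0.82). Cd44 in myeloid cells passed the threshold as well (25, 43 and 26 UMIs in fresh and 6 and 11 UMIs in 2 fixed libraries), but it had no value in the other fixed library, which entered the fit as 0, and it is not read as a call.

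Several of these calls were lost without 1 library: Spp1 in principal cells without fresh replicate 2 or fixed replicate 3 (log2 fold change 0.65 and 0.31), Spp1 in myeloid cells without fresh or fixed replicate 2 (0.86 and 1.04), Krt18 in the PT without fresh or fixed replicate 2 (1.75 and 1.34), Clu in endothelial cells without fresh replicate 2 or fixed replicate 1 or 2 (0.65 to 0.91), and Clu in intercalated cells without fresh replicate 3 or fixed replicate 2 or 3 (-0.89 to -0.66). Cd44 in myeloid cells did not pass the threshold without fresh replicate 2 or any 1 of the fixed libraries (-2.1 to -1.11). Markers of other segments moved with Spp1 and Clu. In the endothelial gate, summed PT markers were at 360 to 585 CPM in fresh and 882 to 1243 CPM in fixed libraries, and DCT/CNT markers at 292 to 418 and 1063 to 1220 CPM. In the PT gate, DCT/CNT markers were at 274 to 416 CPM in fresh and 966 to 1397 CPM in fixed libraries after cold dissociation, and at 333 to 570 and 1269 to 2218 CPM after warm dissociation. Their part in these results was not tested. The fresh cold libraries are the reference of the warm, methanol and cryopreservation comparisons alike, so these comparisons are not independent of each other.

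Cryopreservation left few PT-gated barcodes in the C57BL/6J libraries (0, 2 and 4 after cold and 1, 0 and 3 after warm dissociation), so the PT could not be tested there. With cold dissociation 3 of 21 combinations were called (1 higher, 2 lower), against 5.70% of 22546 (2.99% higher, 2.71% lower), and with warm dissociation 6 of 21 (5 higher, 1 lower), against 8.38% of 15067 (5.17% higher, 3.21% lower). The medians were -0.18 and 0.04, against -0.15 to -0.01 and -0.08 to 0.001 over all genes of a class. Spp1 fell in intercalated cells after cold dissociation, from 2730, 1827 and 2763 CPM to 1206, 885 and 1861 CPM (log2 fold change -1.02, adjusted p = 0.0261, lost without fresh replicate 3 or stored replicate 1 or 2, at -0.89 to -0.75), and in principal cells after warm dissociation, from 1492, 1933 and 1600 CPM to 352, 488 and 561 CPM (-1.70, SE 0.22, adjusted p = 0.000194). In that principal cell gate, summed DCT/CNT markers were at 17048 to 29470 CPM in fresh and 4471 to 11124 CPM in cryopreserved libraries, and PT markers at 203 to 391 and 16.8 to 22.8 CPM; their part was not tested.

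In these male libraries, Cd44 in myeloid cells was higher after cryopreservation with either dissociation. It rose from 91.6, 87.0 and 50.2 CPM to 163, 154 and 151 CPM after cold (log2 fold change 1.04, SE 0.21, adjusted p = 0.00255) and from 70.2, 69.7 and 70.1 CPM to 123, 207 and 197 CPM after warm dissociation (1.44, SE 0.24, adjusted p = 0.0015). Stored libraries lay above fresh libraries in both cases. In the Balb/c female cryopreservation comparison below, Cd44 was tested in 2 classes and was called in 0 (log2 fold changes of -0.25 and 0.13). The rise is therefore shown for the male libraries only. Spp1 in myeloid cells fell after cold dissociation, from 76.9, 56.7 and 104 CPM to 28.7, 31.4 and 31.7 CPM (-1.42, adjusted p = 0.00258), and PT markers in that gate went from 383 to 662 CPM to 1.6 to 26.0 CPM, with their part not tested. After warm dissociation the other calls were each lost without at least 1 library: Krt18 in principal cells (0.89) without fresh replicate 1 or 2 or stored replicate 3 (0.78 to 0.94), Krt18 in intercalated cells (1.08) without any library except stored replicate 2 (0.97 to 1.27), Clu in the TAL (1.28) without fresh replicate 2 or stored replicate 1 or 3 (1.21 to 1.28), and Spp1 in endothelial cells (1.24) without stored replicate 3 (1.09).

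The stored libraries were aliquots of the same numbered suspensions as the fresh ones, and with the suspension number as a block more injury genes were called. After cold dissociation 6 of 22 combinations were called (2 higher, 4 lower), against 7.50% of 24178 over all genes. Spp1 was called lower in the DCT/CNT (-0.63, adjusted p = 0.00125, without replicate 1 of either group, whose stored library held 7 such barcodes) and in principal cells (-0.71, adjusted p = 0.0421), and Clu higher in endothelial cells (1.09, adjusted p = 0.0139), besides the 3 calls made without the block. The fall of Spp1 in intercalated cells had an adjusted p of 0.00268 there. In that DCT/CNT gate, summed PT markers were at 273 to 400 CPM in fresh and at 0, 10.6 and 0 CPM in stored libraries, and their part was not tested.

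After warm dissociation 8 of 24 combinations passed the threshold under the block (5 higher, 3 lower), against 7.46% of 17693. They include Krt18 in endothelial cells, which held 0 UMIs in each fresh library and 7, 12 and 16 UMIs in stored ones, so that it was tested only through the stored libraries and is not read as a call. Among the members of the same fit that were not at 0 in this way, 7 of 22 were called (4 higher, 3 lower). The 7.46% counts all genes of that fit, those at 0 included, and a share without them is not given. Spp1 was called lower in the DCT/CNT (-0.90, adjusted p = 0.0057), and Clu in principal cells (-0.92, adjusted p = 0.0368), at 1014, 1578 and 2560 CPM in fresh and 292, 532 and 2147 CPM in stored libraries. Krt18 in intercalated cells was not called under the block (1.06, adjusted p = 0.109).

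The Balb/c female suspensions kept enough PT-gated barcodes after cryopreservation (94, 113 and 67, against 1597, 3024 and 1567 in fresh libraries) for a test. Of 36 combinations, 6 were higher and 5 lower, against 5.67% of 59043 called (2.31% higher, 3.37% lower), with a median of 0.10 for the members and -0.02 to 0.04 over all genes of a class. With library totals in place of TMM factors 6 were higher and 8 lower, against 6.91% of 59043 called over all genes. The largest change was that of Vcam1 in the PT. It was at 3.32, 2.47 and 4.19 CPM in fresh and 64.3, 59.0 and 153 CPM in cryopreserved libraries, or 22.9 times higher (log2 fold change 4.52, SE 0.31, adjusted p = 5.63e-08), at place 14 of the 9667 genes tested in that class.

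Leaving out each library kept this change between 4.07 and 4.77 on the log2 scale. The UMI counts of Vcam1 were alike in the groups (30, 38 and 34 in fresh, 32, 40 and 52 in cryopreserved libraries) and came from far fewer barcodes after storage, 12 of 94, 16 of 113 and 9 of 67, against 16 of 1597, 26 of 3024 and 21 of 1567. In the third cryopreserved library 1 barcode held 26 of the 52 UMIs. With every barcode thinned to 500 UMIs, the share with a Vcam1 UMI was 0.118% ± 0.066 in fresh and 2.74% ± 1.70 in cryopreserved libraries (n = 3 each, exact two-sided permutation p = 0.1, the smallest that 3 against 3 libraries allow). The barcodes of principal cells in the cryopreserved libraries, which are not known for Vcam1, had no such UMI after thinning. Without thinning, the TAL held 0 Vcam1 UMIs in fresh and 7 in cryopreserved libraries. Ungated barcodes held 125 of 432 and 220 of 473 UMIs, and endothelial barcodes 151 and 99. The rise is therefore not shown to be limited to the PT. Before thinning the PT shares were 1.07% ± 0.247 and 13.5% ± 0.697 (median depths of 4120 to 4600 and 5000 to 6498 UMIs), and in the principal cells of the cryopreserved libraries 0, 0 and 0.752% (3710 to 4466 UMIs). Thinning left out 29 of 6188 fresh barcodes and 1 of 274 cryopreserved ones. Over all comparisons, classes and members, thinned shares did not overlap between groups in 140 of 681 combinations, against 17.3% of 1043133 over all genes.

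Within the PT gate of these libraries, summed markers of other classes moved as well. Endothelial markers were at 11.5 to 13.5 CPM in fresh and 13.3 to 30.1 CPM in cryopreserved libraries, thin limb markers at 17.5 to 24.4 and 215 to 255 CPM, principal cell markers at 80.4 to 82.9 and 159 to 253 CPM, and PT markers at 7020 to 7346 and 6133 to 7749 CPM. Their part in the Vcam1 result was not tested. Of the 10 PT markers, 9 were tested one by one in that class: Slc22a6 (-1.40), Slc13a3 (-1.26), Slc27a2 (-1.17) and Lrp2 (-0.37 on the log2 scale) were lower, 0 were higher, and the other 5 had changes of -0.10 to 0.16 that were not called. These were named after their values were seen.

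Other members of the PT gate changed less. Krt8 rose from 56.6, 54.8 and 45.3 CPM to 76.3, 111 and 91.2 CPM (log2 fold change 0.66, SE 0.17, adjusted p = 0.0102) and Krt18 from 3.77, 4.03 and 3.82 CPM to 26.1, 8.85 and 17.6 CPM (1.89, SE 0.38, adjusted p = 0.00169). Without cryopreserved replicate 2 the Krt8 change was 0.40 (adjusted p = 0.242), and without cryopreserved replicate 1 that of Krt18 was 1.39 (adjusted p = 0.0574), so both calls were lost. The cryopreserved Krt18 values rested on 13, 6 and 6 UMIs. Spp1 in the PT was at 2122, 2082 and 2221 CPM in fresh and 2177, 2494 and 2118 CPM in cryopreserved libraries (log2 fold change -0.11, adjusted p = 0.549). Of 26 other injury genes tested in the PT, 14 rose and none fell, with a median of 1.14 against 0.04 over all genes, led by C3 (5.41), Akap12 (a scaffold of protein kinase A, 3.76) and Tmsb10 (an actin-binding peptide, 3.28). Over all classes of this comparison 2.31% of genes were called higher and 3.37% lower. The share in the PT alone is not given.

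In the collecting duct the directions were mixed. Spp1 fell in principal cells, from 375, 443 and 425 CPM to 99.0, 83.8 and 89.4 CPM (log2 fold change -2.05, SE 0.14, adjusted p = 4.21e-08), and Clu fell from 530, 446 and 1023 CPM to 226, 186 and 182 CPM (-1.60, adjusted p = 0.000191). In the same gate, summed DCT/CNT markers were at 20538 to 23145 CPM in fresh and 982 to 2254 CPM in cryopreserved libraries, and principal cell markers at 18337 to 24164 and 20313 to 29652 CPM; their part in these changes was not tested. Lcn2 rose there from 54.3, 84.0 and 61.1 CPM to 94.8, 102 and 111 CPM (0.74, SE 0.17, adjusted p = 0.0146), a call lost without fresh replicate 1 or 3 or cryopreserved replicate 3 (0.61 to 0.69). Spp1 also fell in intercalated cells (-1.07), podocytes (-1.92) and myeloid cells (-1.71), and Lcn2 (1.92) and Krt18 (1.59) rose in the TAL, both on 5 to 14 UMIs per cryopreserved library. The Lcn2 call in the TAL was lost without fresh replicate 1 or 3 or cryopreserved replicate 1 or 3 (1.40 to 2.08), and the Krt18 call without any library except cryopreserved replicate 2 (1.17 to 1.82).

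Single nuclei were compared with single cells of the same strain and sex, the female fresh cells being also the reference of the cryopreservation above. The libraries differ in the reads counted (exonic for cells, exonic and intronic for nuclei), and scaling moved the values: with library totals in place of TMM factors, the median log2 fold change over all genes was 0.79 higher in the female PT fit, and between 0.14 and 0.79 higher over the 9 female classes. Over the male classes the same choice moved it by -0.75 to 0.42, and RLE size factors moved it by -0.99 to 0.30. In females, 27 of 31 combinations were lower in nuclei and 1 was higher, against 39.1% and 42.2% of 71658 called lower and higher over all genes (81.3% in either direction), with a median of -3.95 for the members and medians of -0.38 to 0.54 over all genes of a class. With library totals 2 of the 31 were higher and 24 lower (83.1% of 71658 called over all genes). The looser gate gave 2 higher and 31 lower of 36 (81.5% of 77058). Cd44, tested in 1 female class, had a log2 fold change of 1.31 that was not called. In males, 13 of 19 were lower, against 29.4% of 30612 called lower, 45.7% higher and 75.1% in either direction over all genes, with a median of -2.68, against -0.95 to 0.82 over all genes of a class. The 19 include Havcr1 in the PT, which had no value in any male cell library, so its outcome was fixed by the filter of the authors and is not read as a call. With genes at 0 over a whole library left out, 12 of 17 were lower and 0 higher (34.2% of 25709 called lower over all genes), with a median of -2.70, against -1.46 to 0.45 over all genes of a class.

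Havcr1 in the PT was the single member called higher in female nuclei in the main fit. Fresh female cells had 1.66, 2.08 and 2.71 CPM (15, 32 and 22 UMIs) and 3x500g nuclei had 42.6, 27.8 and 30.5 CPM (707, 463 and 472 UMIs), or 5.97 times more after scaling (log2 fold change 2.58, SE 0.24, adjusted p = 1.83e-06). Leaving out a library gave 2.38 to 2.78. Nuclei of FANS 1x2000g had 42.0, 26.4 and 34.6 CPM and sucrose nuclei 18.7, 38.1 and 25.9 CPM, so that every female nuclei library lay above every cell library, and neither preparation differed from 3x500g by the test (log2 fold change 0.04 and -0.30).

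After thinning to 500 UMIs, 0.054% ± 0.066 of PT-gated cells and 1.37% ± 0.295 of PT-gated nuclei had a Havcr1 UMI (exact two-sided permutation p = 0.1, the smallest possible here). TAL-gated barcodes, not known for Havcr1, had 0.119% ± 0.206 and 0.065% ± 0.112, with an SD above the mean, so a change could not be told there. Mean Havcr1 CPM was higher in nuclei outside the PT as well. It was at 0.607 in cells and 3.08 in nuclei in the TAL (4 and 39 UMIs), and at 0.457 and 3.85 in endothelial barcodes. In ungated barcodes it was at 4.36 and 37.4, and in the thin limb at 0 in both. Before thinning the shares were 0.886% ± 0.235 and 9.20% ± 0.855 in the PT (median depths of 4120 to 4600 and 4394 to 5272 UMIs) and 0.236% ± 0.205 and 0.857% ± 0.357 in the TAL (3217 to 6103 and 2654 to 3310 UMIs). Male PT nuclei had 14.5, 19.1 and 17.7 CPM, from 96, 104 and 100 UMIs, and Havcr1 had no value in the male cell libraries, so the male groups are not compared.

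Spp1 showed the opposite pattern. In the female PT it was at 2122, 2082 and 2221 CPM in cells and 109, 138 and 115 CPM in 3x500g nuclei (log2 fold change -5.55, SE 0.14, adjusted p = 5.3e-11). In the male PT it was at 406, 376 and 435 CPM in cells and 175, 69.0 and 84.4 CPM in nuclei (-2.28, SE 0.27, adjusted p = 2.49e-06). Cells and nuclei did not overlap in either sex. Across classes other than the thin limb, the mean of Spp1 ranged from 85.2 (stromal) to 3005 CPM (TAL) in female cells and from 72.3 (stromal) to 141 CPM (TAL) in 3x500g nuclei. The thin limb, with 60 gated barcodes, spanned 73.9 to 558 CPM in these nuclei.

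Krt8, Krt18, Clu and Lcn2 were lower in female nuclei in each tubule class in which they were tested, the thin limb being tested for Spp1 alone, and 0 of these calls reversed under another scaling. Krt8 in the female PT was at 56.6, 54.8 and 45.3 CPM in cells and 6.32, 7.44 and 7.48 CPM in nuclei (log2 fold change -4.29, SE 0.13, adjusted p = 1.86e-10). Lcn2 in female principal cells was at 54.3, 84.0 and 61.1 CPM in cells and 2.05, 1.66 and 3.37 CPM in nuclei (-5.55, SE 0.34), the latter from 2 or 3 UMIs per library. Clu fell in the same class from 530, 446 and 1023 CPM to 30.7, 19.1 and 14.6 CPM (-5.68, SE 0.28).

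Vcam1 was the member whose direction depended on the scale. In PT-gated barcodes it was at 3.32, 2.47 and 4.19 CPM in cells and 4.94, 6.36 and 2.71 CPM in nuclei, while the fit gave a log2 fold change of -0.86 (adjusted p = 0.0232, lost without cell replicate 1 or 3 or nuclei replicate 3, at -0.86 to -0.55), and with library totals over the genes tested it was -0.08 (adjusted p = 0.832). In endothelial cells, where it is most abundant, 52.9, 69.9 and 85.1 CPM in cells stood against 90.3, 106 and 105 CPM in nuclei, with a fitted change of -0.01 that was not called. Spp1 in endothelial (-0.54, -0.37 without cell replicate 2 and -0.38 without nuclei replicate 3) and stromal barcodes (-1.06, -0.54 and -0.72) was called lower, but not without those libraries and not with library totals (-0.33 and -0.47). Of 31 other injury genes tested in the female PT, 21 were lower and 6 higher in nuclei, with a median of -1.55 against 0.18 over all genes, the largest calls being Hmox1 (heme oxygenase 1, -4.55), S100a11 (a calcium-binding protein, -4.48) and Vim (vimentin, -4.48). Over all classes 39.1% of genes were called lower and 42.2% higher, 81.3% in either direction, so being called does not by itself set this list apart. The share in the PT alone is not given.

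**Figure D3:**
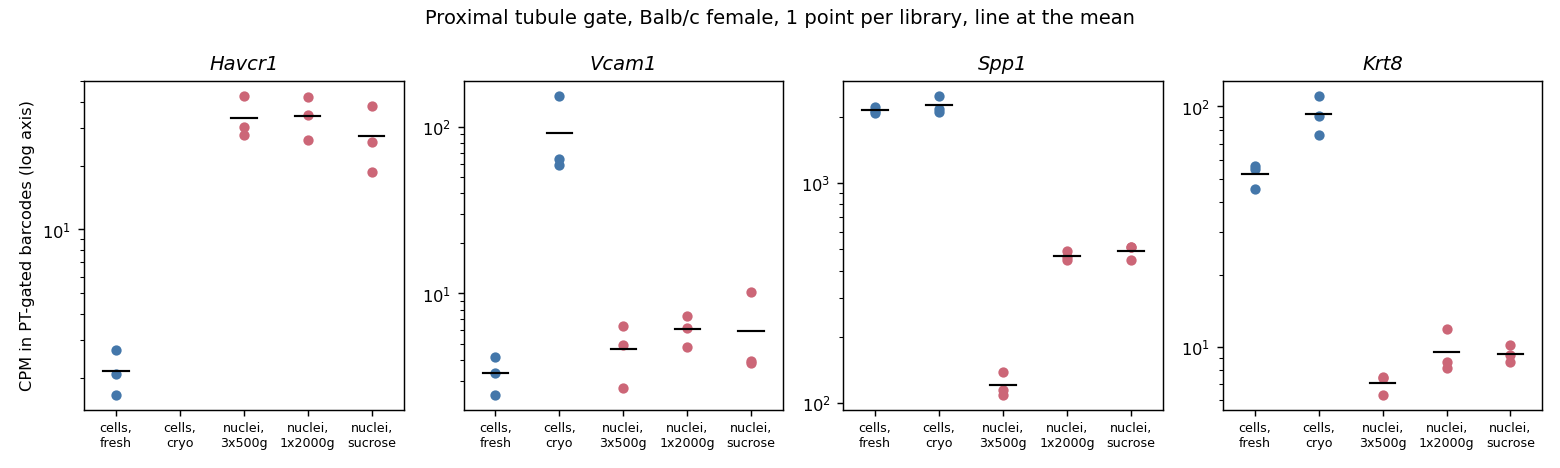
CPM of Havcr1, Vcam1, Spp1 and Krt8 in PT-gated barcodes of each Balb/c female library (points, log axes that differ between panels) with the mean of the group (line); Havcr1 had no value in the cryopreserved libraries. Havcr1 is higher in all 9 nuclei libraries than in the 3 libraries of cells, Vcam1 is highest after cryopreservation (59.0 to 153 CPM), and Spp1 and Krt8 are lower in nuclei.

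The 3 nuclei preparations of female kidney were then compared with each other, 1x2000g and sucrose each against 3x500g, which both comparisons share. With 1x2000g, 18 of 35 combinations were higher and 0 lower (16.5% of 78709 called, 10.9% higher), with a median of 0.95, against -0.02 to 0.01 over all genes of a class. With sucrose, 20 of 32 were higher and 0 lower (24.1% of 76779 called, 13.1% higher), with a median of 0.86, against -0.02 to 0.01.

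Spp1 rose in each of the 9 classes in both comparisons, by 1.94 to 2.93 on the log2 scale with 1x2000g and by 1.47 to 2.52 with sucrose. In the PT it went from 109, 138 and 115 CPM to 445, 461 and 489 CPM with 1x2000g (log2 fold change 1.96, SE 0.09, adjusted p = 0.000187) and to 515, 511 and 445 CPM with sucrose (2.02, SE 0.10, adjusted p = 6.69e-05). Endothelial nuclei, a class in which Spp1 is low in cells, went from 139, 141 and 105 CPM to 655, 540 and 681 CPM with 1x2000g (2.31, SE 0.12) and 439, 404 and 453 CPM with sucrose (1.76, SE 0.12). The PT levels of both preparations stayed below those of PT-gated cells (2082 to 2221 CPM). In the endothelial gate, summed PT markers were at 939 to 1046 CPM with 3x500g, 1167 to 1252 CPM with 1x2000g and 819 to 948 CPM with sucrose. TAL markers there were at 912 to 1197, 970 to 1137 and 868 to 1018 CPM, DCT/CNT markers at 678 to 973, 761 to 864 and 476 to 551 CPM, and thin limb markers at 85.1 to 94.8, 106 to 142 and 88.6 to 126 CPM, and their part was not tested. With sucrose the call in the thin limb was lost without 3x500g replicate 2 or 3 or sucrose replicate 1 or 3 (2.01 to 2.61), and that in podocytes without sucrose replicate 1 (1.30).

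**Figure D4:**
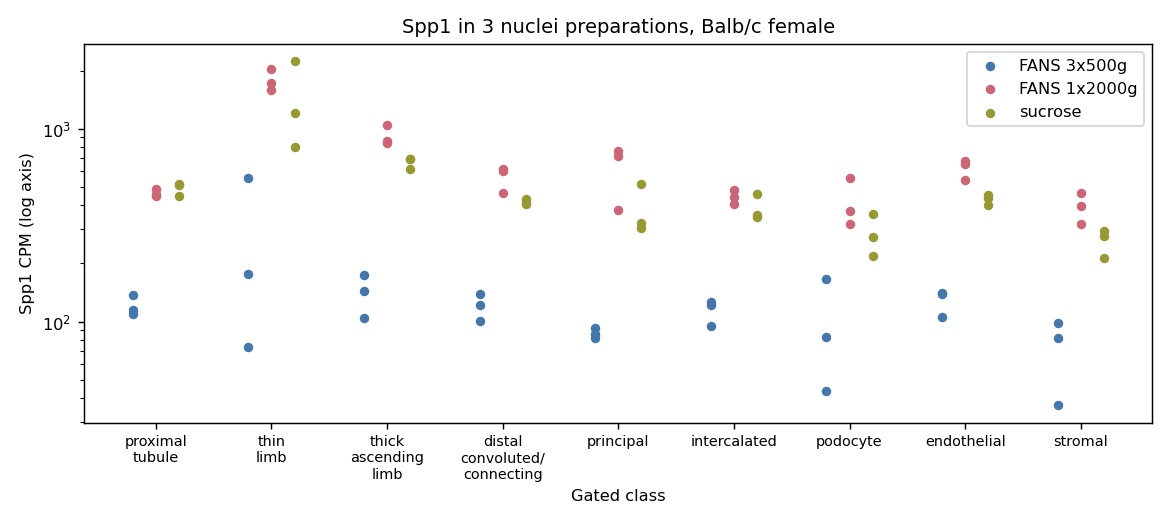
Spp1 CPM (log axis) by gated class in the 3 nuclei preparations of Balb/c female kidney, 1 point per library. The 3x500g libraries lie between 36.8 and 558 CPM, below the other preparations in each class, and the thin limb has the highest mean in each preparation.

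Among the other members, Krt18, Krt19 and Clu were higher in PT nuclei with both preparations. Krt18 went from 1.33, 0.90 and 0.968 CPM to 2.71, 2.84 and 3.89 CPM with 1x2000g (log2 fold change 1.56, SE 0.26, adjusted p = 0.00567) and to 3.68, 4.18 and 4.30 CPM with sucrose (1.91, SE 0.23). Krt19 was lower still, at 0.361, 0.600 and 0.323 CPM in 3x500g nuclei, and rose by 1.99 with 1x2000g, a call lost without replicate 1 or 3 of either group (1.69 to 1.90), and by 1.94 with sucrose. Clu rose in the PT by 0.83 and 0.82, lost without 3x500g replicate 1 or 3 or 1x2000g replicate 2 or 3 (0.63 to 0.82) and without sucrose replicate 2 (0.73). Summed markers of other classes in the PT gate differed as well: urothelial markers were at 12.1 to 15.7 CPM with 3x500g, 19.6 to 25.6 CPM with 1x2000g and 24.8 to 29.2 CPM with sucrose, stromal markers at 26.8 to 34.2, 38.4 to 43.5 and 46.5 to 65.5 CPM, and endothelial markers at 89.1 to 103, 91.0 to 142 and 130 to 148 CPM. PT markers were at 16539 to 16770, 14433 to 14991 and 13281 to 14286 CPM. Their part in these results was not tested. Krt8, Krt18 and Clu also rose in the TAL with both, Krt8 with the least margin (0.71 and 0.63, 0.49 to 0.78 without the libraries that ended the call). Endothelial Krt8 rose with 1x2000g from 1.29, 2.93 and 1.69 CPM to 12.8, 13.8 and 7.96 CPM (2.40, adjusted p = 0.00165). Havcr1 was tested in the PT and the TAL, and with 1x2000g in endothelial nuclei, and was not called.

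PT-gated barcodes with and without a Havcr1 UMI were set side by side, as a description without a test, in the 15 libraries with enough of them. The comparison is within a gate defined by the PT markers, and the genes named here besides the members were picked after their values were seen. In female 3x500g nuclei 10.0%, 8.30% and 9.29% of PT-gated barcodes had a Havcr1 UMI, in cells 0.814%, 0.694% and 1.15%, and in male nuclei 1.74%, 2.09% and 1.82%. Spp1 was lower in Havcr1-positive barcodes in 15 of 15 libraries (14 after thinning to 1000 UMIs), with a median over libraries of 58.3 against 124 CPM in female 3x500g nuclei, 243 against 485 CPM in 1x2000g nuclei and 889 against 2132 CPM in cells.

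Of the 10 PT markers, 6 (Slc34a1, Slc5a12, Slc13a3, Acsm2, Slc22a6 and Slc4a4) were lower in 13 to 15 of the 15 libraries, and the other 4 (Lrp2, Cubn, Slc27a2 and Slc22a30) were lower in 0 to 4. Slc5a12 (a lactate transporter of the early PT) was lower in 15 of 15 libraries, at a median of 160 against 1860 CPM in female 3x500g nuclei, and so was Slc34a1 (the phosphate transporter), at 762 against 3638 CPM. Slc27a2 (a fatty acid transporter) was higher in 15 of 15, at 3411 against 2192 CPM. Krt8 was lower in 2 of the 15 libraries (6 after thinning), Krt18 in 13 (15) and Clu in 13 (10). Vcam1 was lower in 12 (12), Krt19 in 11 (11), Cd44 in 10 (7), Lcn2 in 11 of 13 (10) and Sox9 in 7 of 12 (5). Havcr1-positive barcodes were few (13, 21 and 18 in the cell libraries). A gene with few UMIs is often at 0 in them and then counts as lower, so such counts are not read as differences. The median depth of Havcr1-positive barcodes was the higher one in all 15 libraries.

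**Figure D5:**
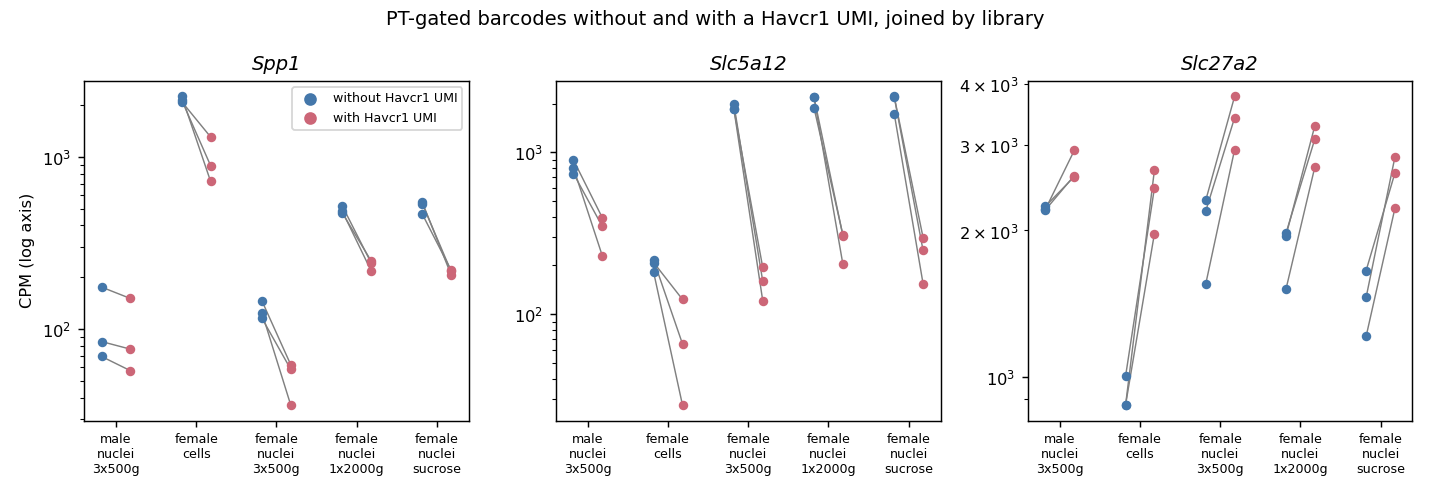
CPM (log axes) of Spp1, Slc5a12 and Slc27a2 in PT-gated barcodes without (blue) and with (red) a Havcr1 UMI, joined by library, for 5 groups of 3 libraries. The Spp1 and Slc5a12 lines fall and the Slc27a2 lines rise in all 15 libraries.

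The genes with the most similar pattern to 9 of the members, by Pearson's r of log2(CPM + 1) over class means of up to 5 groups of fresh cold cells and 3x500g nuclei, are given as a description, since the points share libraries and depth. For Havcr1 they were Gm30304 (0.94), Abcc6 (0.92) and Acsm5 (0.92) over 28 points. Lcn2 was most like Avpr2 (0.83) and Fxyd4 (0.82), both among the markers of the principal cell gate, and Kcne1 (0.77) over 39 points. Over 47 points, Krt8 was most like Lad1 (0.89), Gstt1 (0.87) and Rhot2 (0.83), and Krt18 like Cldn8 (0.91), Cldn7 (0.88) and Tspan1 (0.88). Over the same points, Vcam1 was most like Sdc3 (0.85), Oasl2 (0.82) and Nostrin (0.80), Clu like Pgam2 (0.88), the DCT/CNT gate marker S100g (0.85) and Klk1 (0.82), and Cd44 like Vav1 (0.83), Batf (0.77) and Adcy7 (0.76). Krt19 was most like Muc1 (0.76), Mal2 (0.75) and AI661453 (0.75) over 38 points, and Sox9 like E530001K10Rik (0.78), Cdca7l (0.77) and Car8 (0.77) over 20 points.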

How the data were processed

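The mice, groups and libraries are given above. For 10x libraries the authors aligned reads to mm10 with Cell Ranger 2.1.1, called cells with EmptyDrops, kept genes detected in at least 10 cells, filtered barcodes on genes and mitochondrial share, and deposited raw UMI counts, taken from exonic reads for cells and from exonic and intronic reads for nuclei. The tables of nuclei and of Balb/c male cells list no mitochondrial genes, so CPM there is set to a total without them, unlike that of the other cell libraries. For bulk libraries they aligned with STAR 2.6.1a to GRCm38 and deposited featureCounts read counts per gene; duplicates were marked with Picard before counting, and whether they were then left out and the strand setting are not given in the sources used here, so overlapping genes are uncertain, and intervals cover counting error only.

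The members and lists were chosen with earlier results of these data known. All 10 members are named, but not every tested value is given, so a value left out does not mean a gene was not tested. Also named are up to 3 called genes of the other injury list and the 3 genes most like each of 9 members. No doublet caller was run. Positions are from GENCODE vM21 on GRCm38: Havcr1 11:46735080-46779578 (+), Lcn2 2:32384633-32388252 (-), Spp1 5:104435118-104441050 (+), Krt8 15:101996698-102004482 (-), Krt18 15:102028180-102032027 (+), Krt19 11:100140810-100148665 (-), Vcam1 3:116109949-116129688 (-), Clu 14:65968483-65981547 (+), Sox9 11:112782224-112787760 (+) and Cd44 2:102811141-102901665 (-), all protein-coding.

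UMI sums per class and library (classes with at least 10 barcodes in at least 2 libraries per group) and bulk counts were fitted in R 4.3.3 over all genes listed in every library, using edgeR 4.0.16 (quasi-likelihood test, TMM, filterByExpr), and p-values were adjusted by Benjamini-Hochberg and called at an adjusted p of 0.05. A gene at 0 over a whole 10x library had been left out there by the filter of the authors and is given no value. Shares were compared with exact permutation tests over all ways to divide the libraries, computed with numpy 2.4.6. p-values measure the spread between the 3 libraries of a group. Without the block, the storage fits treat stored and fresh aliquots of the same suspensions as independent. The paper describes the Balb/c cryopreserved cells as aliquots too, but no number pairs them with the fresh libraries. On simulated counts the test recovered 84.2% of genes changed 1 unit of log2 and 99.0% of those changed 2 units in the intact against suspension fit (16332 genes), 72.2% and 97.9% in the fresh PT fit (9310 genes) and 85.7% and 98.0% in the female nuclei PT fit (12294 genes), with 9 to 11 false calls. The simulation changed few genes, in equal numbers up and down. In the female nuclei against cells fits 81.3% of genes were called, so these figures do not show how the test performs there. Barcode names number the C57BL/6J suspensions, and the stored libraries were aliquots of them, which pairs them with the fresh ones. Deviations of same-numbered libraries correlated by 0.28 to 0.44 (cold) and 0.15 to 0.29 (warm) for methanol, and by 0.03 to 0.10 and -0.08 to 0.03 for cryopreservation. Alternatives were RLE size factors, DESeq2 1.42.0, no filter, other gates, a fold threshold, left-out libraries and genes, other thinning depths and, added after the data were seen, the block, library totals and leaving out genes at 0 in a library. The genes most like Spp1 in pattern are not reported here.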

Additional observations from a re-analysis of the deposited data

Results flagged for a closer look

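The nuclei against cells contrast differed between Balb/c females and males, by an interaction term in the edgeR fit of both pairs of groups, for 11 values of the injury genes, and the cryopreservation contrast for 1. For 2 more values 1 group held almost no counts. Sex, age, 10x chemistry and batch cannot be told apart in these differences, which are female minus male in log2 fold change within that joint fit. It leaves out genes at 0 over a whole library and is scaled anew, so its differences are not those between the separate fits above. No other scaling of the joint fit was run. Many genes differed in this way: 42.8% of those tested in the PT, 15.2% in the TAL, 12.0% in the DCT/CNT, 14.5% in principal and 15.5% in endothelial cells. In the PT the differences were -2.71 for Spp1 (adjusted p = 5.74e-06), -1.05 for Krt8 (adjusted p = 0.00237) and -1.71 for Krt18 (adjusted p = 0.0331). In the TAL the difference was -1.28 for Spp1 (adjusted p = 0.00839).

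In the DCT/CNT the differences were -1.01 for Spp1 (adjusted p = 0.0332), -2.34 for Krt18 (adjusted p = 0.0493) and -1.10 for Clu (adjusted p = 0.0124). In principal cells they were -2.85 for Spp1 (adjusted p = 7.31e-06), -1.34 for Krt8 (adjusted p = 0.0473) and -3.44 for Clu (adjusted p = 6.66e-05). In the separate fits, Spp1 in principal cells had a female log2 fold change of -3.01 beside a male one of 0.13 that was not called. In endothelial cells the difference was -2.70 for Spp1 (adjusted p = 0.000116), on 4, 3 and 1 Spp1 UMIs in the 155, 92 and 19 male endothelial barcodes of cells, which had no fit in males alone. These barcodes held 2, 0 and 0 Clu UMIs and 0 Vcam1 UMIs, so the fitted values of -4.04 for Clu and -8.13 for Vcam1 were set by male cells at or near 0 and are not read as differences. Male DCT/CNT cells held 2, 3 and 2 Krt18 UMIs.

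The cryopreservation effect on Spp1 in principal cells was lower by 1.31 (a difference of -1.31, adjusted p = 0.0275) in Balb/c females than in C57BL/6J males after cold dissociation, where 0.282% of the genes tested differed. Its fitted log2 fold changes were -2.05 and -0.73. Strain, sex, age, storage time, chemistry and centrifugation speed (400 g in C57BL/6J, 1200 g in Balb/c cryopreserved suspensions) cannot be told apart there.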

How the results depend on the processing

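The number of injury genes called changed with the following choices. Shares in parentheses are those of all genes called under the same choice, and none are given for left-out libraries. With an absolute log2 fold change of at least 1 required, 2 of 8 were called in warm against cold bulk (2.33%), 2 of 10 in intact against suspension bulk (5.47%), 2 of 22 in fresh warm against cold cells (582 of 27677 over all genes) and 7 of 24 in cold methanol (10.4%). DESeq2 called 6 of 23 in cold methanol (11.7%). Without a filter on low counts, 6 of 10 were called in warm against cold bulk (7.60%), 5 higher and 1 lower, so that 1 member fell there. The same choice gave 3 of 43 in warm methanol (3.48%) and 7 of 63 in cold C57BL/6J cryopreservation (2.24%). It gave 11 of 55 in warm C57BL/6J cryopreservation (2.77%) and 18 of 72 in Balb/c cryopreservation (3.59%). The looser gate gave 4 of 17 (14.6%) and library totals 2 of 16 (13.0%) in warm methanol. Leaving out 1 library gave 3 to 4 and 5 to 6 calls in bulk, 3 to 5 in fresh cells, 5 to 12 in cold methanol (6 without fresh replicate 2, 5 without fixed replicate 2), 1 to 2 in warm methanol (2 without fixed replicate 2), 3 to 4 in cold and 3 to 7 in warm cryopreservation (3 without fresh replicate 2), 8 to 11 in Balb/c cryopreservation, 15 to 17 in male and 26 to 32 in female nuclei against cells, and 14 to 17 with 1x2000g and 16 to 19 with sucrose. The counts without 1 library have no share over all genes beside them and are not read as a result about the members. The cause was not tested.

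With the suspension number as a replicate block, chosen after seeing the data, 12 of 27 passed the threshold in cold methanol, 2 of 16 in warm methanol, 6 of 22 in cold and 8 of 24 in warm cryopreservation, some of them on genes at 0 as given above. In fresh warm against cold cells the samples share only a number, and same-numbered deviations correlated by -0.12 to 0.26. There 7 of 28 were called (6 higher, 1 lower), against 4.43% of 30983 over all genes: the 4 calls made without the block, Spp1 (1.01) and Clu (1.18) higher in endothelial cells and Clu lower in the TAL (-1.17). No paired analysis of the Balb/c and bulk libraries was possible because their labels and columns carry no shared number.

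Thinned shares of barcodes with a UMI did not overlap between groups in 133 to 152 combinations without a library, and in 211 without thinning, against 140 above. The share over all genes is not given for either choice, so these counts are not read as a result about the members. Each called value, including those not read as calls above, was checked again under the alternatives. Of these checks, 1585 kept direction and call, 142 kept direction and lost the call, 99 of them without 1 library, and 0 reversed. Depth limits what could be seen of Havcr1, Lcn2, Krt19 and Sox9, which held 119, 293, 171 and 50 UMIs in the fresh female libraries together.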
